A study of Saccharomyces cerevisiae with 28 samples.

Results

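Baker's yeast takes up amino acids through a family of plasma membrane permeases, and the transcripts of 10 of them were followed here from 0 to 50% sucrose in a pair of yeasts. The members were DIP5, AGP1, GNP1, BAP2, TAT1, BAP3, TAT2, ALP1, CAN1 and LYP1, picked by gene symbol out of 5449 Saccharomyces cerevisiae genes with a symbol on the array. Each had 1 probe set, so no measured value was needed to choose between probe sets. The family was proposed with earlier results of these data known, in which DIP5 had been singled out for its rise in HS yeast. For that reason the DIP5 change of HS from 0% to the lower sucrose concentrations is given as a description, with no test.

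The series addressed sugar stress during fermentation. It holds 28 Affymetrix arrays of poly(A) RNA, 14 of the yeast the labels call HS and 14 of the yeast they call LS. What HS and LS stand for and what LF medium contains are not given in the labels. Every culture had fermented for 60 min in LF medium, with 0, 5, 10, 20, 30, 40 or 50% sucrose, and each of the 14 combinations had 2 arrays. The deposited value is a ratio to the usual level of that probe set across arrays. It can be compared between arrays and not between genes. The labels do not say that replicates came from separate cultures, so a p-value covers only the spread between these arrays, whose number limits the precision.

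In yeast, external amino acids are sensed by the Ssy1-Ptr3-Ssy5 complex of the plasma membrane, the SPS sensor. It releases the transcription factors Stp1 and Stp2 to the nucleus, where they activate the genes of several permeases, among them AGP1, GNP1, BAP2, BAP3, TAT1, TAT2 and DIP5. A poor nitrogen supply calls on another set, led by the general permease gene GAP1, through the GATA factors of nitrogen catabolite repression. Sucrose itself is split outside the cell by invertase and is no substrate of any of these permeases.

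The arrays also carry probe sets of fission yeast, Schizosaccharomyces pombe, which serve as a background. On 22 arrays their median ratio lay at 0.119 to 0.994. It reached 1.51 to 13.7 on the second LS replicates at 0, 5, 10, 20, 30 and 50%, 6 arrays in all. Across genes, Pearson's r between the 2 arrays of these LS groups was -0.222 to 0.501, and 0.471 to 0.725 in the 7 HS groups. Results on the permease genes are therefore given with all 28 arrays and, in many cases where the call differs, without these 6, in a fit of 22 arrays. That fit leaves 1 array in each LS group except 40%, so for LS often only its size is given, whether or not it passed. Counts over the other gene lists are given both ways. The S. pombe background moved on the log2 scale by 1.18 in HS and 0.193 in LS for 5 to 20% against 0%. Against 5 to 20% it moved in HS by -0.845 at 40% and -0.477 at 50%, and in LS by -2.39 and 0.135. Its part in the permease differences was not tested. All S. cerevisiae probe sets with 1 symbol, 5498 in all, were fitted together with limma on log2 ratios. A difference is the first named group minus the second, ± SE. A call is an adjusted p under 0.05 after Benjamini-Hochberg adjustment over the 5498 probe sets.

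Several permeases shared a course in HS. DIP5, AGP1 and TAT2 were low without sucrose, high at 5 to 30% and low again at 50%. BAP2 and TAT1 were low up to 20% and higher at 40 and 50%. CAN1 and LYP1, permeases of basic amino acids, stayed within a narrow range. GNP1 was low without sucrose and stayed high through 50%. BAP3 was low without sucrose, higher at 5 to 20% and low again at 40%, with no call and with arrays far apart at 50%. ALP1 had none of these courses. In LS, GNP1, TAT2 and ALP1 fell at 50% and TAT1 rose. Of these LS calls, those of GNP1, TAT2 and TAT1 were lost without the second array at 50%.

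**Figure D1:**
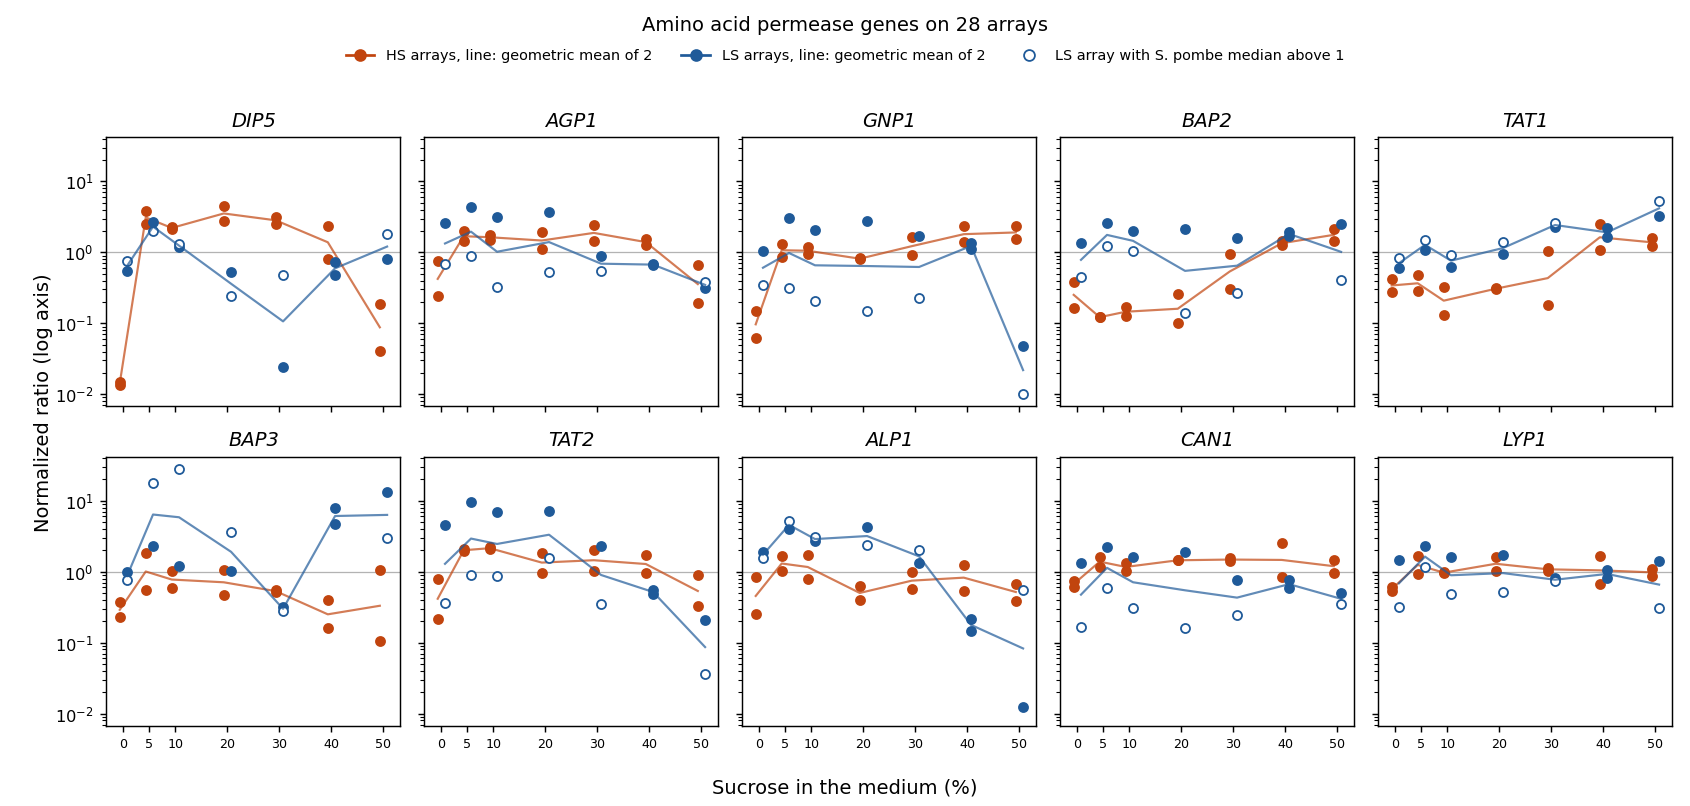
Normalized ratio (log axis) of each permease gene against sucrose concentration in percent, for HS and LS. Points are single arrays, lines join the geometric mean of the 2 arrays, and open points mark the 6 LS arrays whose S. pombe median exceeded 1. DIP5 in HS lies at 0.0134 and 0.0151 without sucrose and above 2 at 5 to 30%, and GNP1 and ALP1 reach their lowest values in LS at 50%.

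The acidic amino acid permease came first. DIP5 encodes the high-affinity carrier of glutamate and aspartate. In HS its ratio was 0.0134 and 0.0151 at 0%, 3.81 and 2.53 at 5%, 2.11 and 2.31 at 10%, 4.54 and 2.75 at 20%, 3.18 and 2.52 at 30%, 2.35 and 0.818 at 40%, and 0.0412 and 0.187 at 50%. Both arrays without sucrose were thus below every other HS array, and both arrays at 50% were below all HS arrays of 5 to 40%. The mean of HS at 5 to 20% (6 arrays) exceeded that at 0% (2 arrays) by 7.67 ± 0.82 on the log2 scale, about 203-fold. Both arrays at 0% were near 0.01, the lowest value of the table, so the size is not fixed. Over all settings the difference ran from 5.39 to 8.16.

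At the other end of the range DIP5 fell by 5.04 ± 0.82 in HS at 50% against 5 to 20% (33.0-fold, adjusted p = 0.000423). That call held when any single array was left out and under each other setting tried, with differences from -6.25 to -3.95. The HS arrays at 5 to 20% also entered the rise that singled DIP5 out. This test thus draws in part on the values that chose the gene. At 40% the difference was -1.06 ± 0.82 (adjusted p = 0.718), with 1 of the 2 arrays inside the range of 5 to 20%. In LS no such course was seen. DIP5 had 0.544 and 0.758 there at 0%, 2.65 and 2.01 at 5%, 1.18 and 1.31 at 10%, 0.537 and 0.243 at 20%, 0.0239 and 0.474 at 30%, 0.483 and 0.735 at 40%, and 0.801 and 1.82 at 50%. The LS arrays at 50% overlapped those at 5 to 20%, with a difference of 0.25 ± 0.82 (adjusted p = 0.846).

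AGP1 encodes a permease of broad specificity for neutral amino acids. In HS it had a median of 1.64 at 5 to 20% (lowest 1.11, highest 1.99), against 0.240 and 0.744 at 0%. The 2 sets of arrays did not overlap, and the difference was 1.92 ± 0.87 (adjusted p = 0.234). At 50% HS had 0.663 and 0.192, both below all arrays at 5 to 20%, and the difference was -2.16 ± 0.87 (adjusted p = 0.105). Without the 6 LS arrays, which enter HS comparisons only through the shared spread, both AGP1 differences passed (adjusted p = 0.0117 and 0.00396).

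In LS the AGP1 values at 5 to 20% split by replicate, with 4.37, 3.2 and 3.66 on the first and 0.876, 0.325 and 0.532 on the second replicates. At 40% they were 0.662 and 0.681, and at 50% 0.316 and 0.383. The LS difference at 40% was -1.07 ± 0.87 (adjusted p = 0.431), and -2.47 without the 6 arrays. The LS difference at 50% was -2.02 ± 0.87 (adjusted p = 0.104), and -3.55 without the 6 arrays, which leaves 1 array at 50%. Leaving out the second LS replicate at 5, 10 or 20% alone gave a call at 50% (differences -2.40, -2.57 and -2.48).

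GNP1 encodes the high-affinity glutamine permease. Without sucrose it was low in HS: the ratios were 1.33, 0.865, 1.17, 0.947, 0.793 and 0.835 on the HS arrays at 5 to 20%, against 0.0619 and 0.151 at 0%. The difference was 3.33 ± 1.09 (10.1-fold, adjusted p = 0.0675), and it passed without the 6 LS arrays (adjusted p = 8.12e-05) and with HS fitted alone (adjusted p = 0.000203). At 40 and 50% HS stayed high, with 2.35 and 1.39 at 40% and 2.33 and 1.57 at 50%, all above the highest array at 5 to 20%. These HS differences were 0.89 ± 1.09 and 0.97 ± 1.09 (adjusted p = 0.887 and 0.621).

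In LS, GNP1 went the other way at the highest concentration. It had 0.0478 and 0.01 at 50%, where 0.01 is the lowest value of the whole table, against a median of 1.202 at 5 to 20% (lowest 0.147, highest 3.09). Both arrays at 50% were below every other LS array. The fitted difference was -5.09 ± 1.09 (adjusted p = 0.00271), and since 1 array is at the lowest value of the table its size is not fixed. Without the 6 arrays, that array among them, 1 array is left at 50% and the difference was -5.78. The call was lost without the second replicate at 50% alone (difference -3.96, adjusted p = 0.0722). It was also lost with only the compared groups (adjusted p = 0.0707) and with LS alone (adjusted p = 0.0507).

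Among permeases of branched-chain and aromatic amino acids in HS, BAP2 and TAT1 rose at 50%, and BAP3 and TAT2 were not called there with all arrays. BAP2 encodes a carrier of leucine, isoleucine and valine. In HS it had 0.165 and 0.384 at 0%, 0.122 and 0.122 at 5%, 0.126 and 0.168 at 10%, 0.1 and 0.257 at 20%, 0.302 and 0.957 at 30%, 1.42 and 1.27 at 40%, and 2.13 and 1.47 at 50%. From 30% on, every HS array was above all arrays of 5 to 20%. BAP2 rose by 3.64 ± 0.92 in HS at 50% against 5 to 20% (12.5-fold, adjusted p = 0.011), and at 40% the difference was 3.25 ± 0.92 (adjusted p = 0.0697). Without the 6 LS arrays both passed (adjusted p = 9.76e-05 and 0.000746), the 40% difference with the replicate number as a block as well (adjusted p = 0.0484). The 50% call was lost without the first or the second HS array at 50% (adjusted p = 0.11 and 0.109).

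TAT1, which encodes a carrier of tyrosine and also of valine, lies beside BAP2 on its chromosome in the RefSeq annotation. In HS its ratios were 0.420 and 0.277 at 0%, 0.478 and 0.281 at 5%, 0.132 and 0.329 at 10%, 0.312 and 0.302 at 20%, 0.179 and 1.05 at 30%, 1.07 and 2.49 at 40%, and 1.58 and 1.21 at 50%. Arrays at 40 and 50% did not overlap those at 0 to 20%, whereas the 2 arrays at 30% lay on either side. TAT1 rose in HS by 2.51 ± 0.60 at 40% (adjusted p = 0.0292) and by 2.27 ± 0.60 at 50% (4.84-fold, adjusted p = 0.015) against 5 to 20%. The 40% call was lost without any 1 of 6 arrays, with an adjusted p of 0.0595 to 0.65. They were the second replicate at 5%, the first at 10%, and either one at 20 and at 40%. The 50% call was lost without either array at 50% (adjusted p = 0.136 and 0.128).

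TAT1 was also higher in LS at high sucrose. LS had 0.597 and 0.831 at 0%, 1.09 and 1.49 at 5%, 0.631 and 0.924 at 10%, 0.950 and 1.39 at 20%, 2.30 and 2.57 at 30%, 1.67 and 2.197 at 40%, and 3.28 and 5.31 at 50%. All LS arrays from 30% on were above those at 5 to 20%. It rose by 2.01 ± 0.60 in LS at 50% (4.02-fold, adjusted p = 0.022). That call was lost after quantile normalization (adjusted p = 0.282), without the 6 arrays (1.92 ± 0.84, adjusted p = 0.0754), with LS fitted alone (adjusted p = 0.102) and without the second replicate at 50% (adjusted p = 0.179). The TAT1 call was also lost with only the compared groups (adjusted p = 0.303). BAP2 in LS had 2.53 and 0.408 at 50%, against a median of 1.62 at 5 to 20% (lowest 0.139, highest 2.55), with a difference of -0.14 ± 0.92 (adjusted p = 0.931).

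BAP3, a relative of BAP2 with a similar substrate range, had a wide spread. In LS it reached 17.7, 28.01 and 3.59 on the second replicates at 5, 10 and 20%, against 2.31, 1.22 and 1.01 on the first. LS had 4.64 and 7.99 at 40% and 13.3 and 3.002 at 50%. The difference of 50% against 5 to 20% was 0.61 ± 1.06 (adjusted p = 0.714) with all arrays and 3.23 ± 1.07 without the 6 (adjusted p = 0.0253), which leaves 1 array at 50%. In HS the highest BAP3 array was 1.84, at 5%, and the lowest was 0.105, at 50%. All HS arrays at 5 to 20% (lowest 0.469) were above those at 0% (0.371 and 0.226) and at 40% (0.159 and 0.394). The other array at 50%, 1.04, was inside the range of 5 to 20%. None of the 3 HS comparisons passed, at differences of 1.5 ± 1.06, -1.71 ± 1.06 and -1.31 ± 1.06 for 5 to 20% against 0%, 40% and 50% against 5 to 20% (adjusted p = 0.51, 0.577 and 0.461).

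TAT2 encodes the high-affinity tryptophan and tyrosine permease. In LS it had 0.206 and 0.0363 at 50% and 0.550 and 0.485 at 40%, against 9.47, 6.98 and 7.15 on the first and 0.905, 0.866 and 1.54 on the second replicates at 5, 10 and 20%. Arrays at 40 and 50% were below all of these. TAT2 fell by 5.06 ± 1.09 in LS at 50% (33.3-fold, adjusted p = 0.00282), and the difference at 40% was -2.48 ± 1.09 (adjusted p = 0.125). Without the 6 arrays, which leaves 1 array at 50%, the differences were -5.24 at 50% and -3.91 at 40%. At 40% the S. pombe background moved by -2.39 with all arrays and by -0.852 without the 6, and its part was not tested. The 50% call was lost without the second replicate at 50% (adjusted p = 0.0812) and with only the compared groups in the fit (adjusted p = 0.0556).

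In HS the TAT2 values spanned less. They were 0.883 and 0.323 at 50%, against a median of 2.003 at 5 to 20% (lowest 0.971, highest 2.19), and 0.218 and 0.790 at 0%. Neither end overlapped the middle. The differences were -1.75 ± 1.09 for 50% against 5 to 20% (adjusted p = 0.317) and 2.11 ± 1.09 for 5 to 20% against 0% (adjusted p = 0.314). Both passed without the 6 LS arrays (adjusted p = 0.0156 and 0.00838).

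Among the permeases of basic amino acids, ALP1 fell in LS at high sucrose, and CAN1 and LYP1 had no call in any comparison with all arrays. ALP1 encodes a permease related to the arginine permease Can1. In LS it had 1.90 and 1.58 at 0%, 3.998 and 5.21 at 5%, 2.72 and 3.05 at 10%, 4.23 and 2.39 at 20%, 1.33 and 2.04 at 30%, 0.147 and 0.214 at 40%, and 0.0125 and 0.547 at 50%. All 4 arrays at 40 and 50% were below every LS array of the lower concentrations. ALP1 was also a member whose LS replicates did not part at 5 to 20%. It fell by 4.29 ± 0.91 at 40% (19.6-fold, adjusted p = 0.00288) and by 5.39 ± 0.91 at 50% (adjusted p = 0.000437). The 40% call was lost without the first array at 40% (adjusted p = 0.0593). The 50% call held throughout, but its size rested on the first array at 50%, whose 0.0125 is near the lowest value of the table. It was -2.67 without that array (adjusted p = 0.0197) and -8.12 without the second (adjusted p = 7.69e-06).

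ALP1 in HS had 0.538 and 1.26 at 40% and 0.680 and 0.392 at 50%, against a median of 0.899 at 5 to 20% (lowest 0.405, highest 1.74). The groups overlapped, and the differences were -0.15 ± 0.91 and -0.82 ± 0.91 (adjusted p = 0.991 and 0.614).

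CAN1, the arginine permease gene, had an HS median of 1.38 at 5 to 20% (lowest 1.03, highest 1.62), against 0.733 and 0.611 at 0%. LYP1, the lysine permease gene, had an HS median of 1.001 (lowest 0.933, highest 1.66), against 0.609 and 0.527. Neither gene's groups overlapped, and the differences were 0.99 ± 0.89 and 1.03 ± 0.70 (adjusted p = 0.63 and 0.491). Without the 6 LS arrays LYP1 passed (adjusted p = 0.0463) and CAN1 did not (adjusted p = 0.0604). The S. pombe background moved by 1.18 on the log2 scale in the same comparison, with a median ratio of 0.234 to 0.461 on the HS arrays at 5 to 20% and of 0.119 to 0.183 at 0%. Its part in differences of this size was not tested. At 40 and 50% the HS differences of CAN1 and LYP1 against 5 to 20% lay between -0.24 and 0.14. In LS, CAN1 had 0.583 and 0.762 at 40% and 0.497 and 0.345 at 50%, against 2.21, 1.63 and 1.86 on the first and 0.581, 0.308 and 0.160 on the second replicates at 5, 10 and 20%. Its LS differences were -0.19 ± 0.89 and -0.88 ± 0.89. They were -1.5 and -1.92 without the 6 arrays, which leaves 1 array at 50%.

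**Figure D2:**
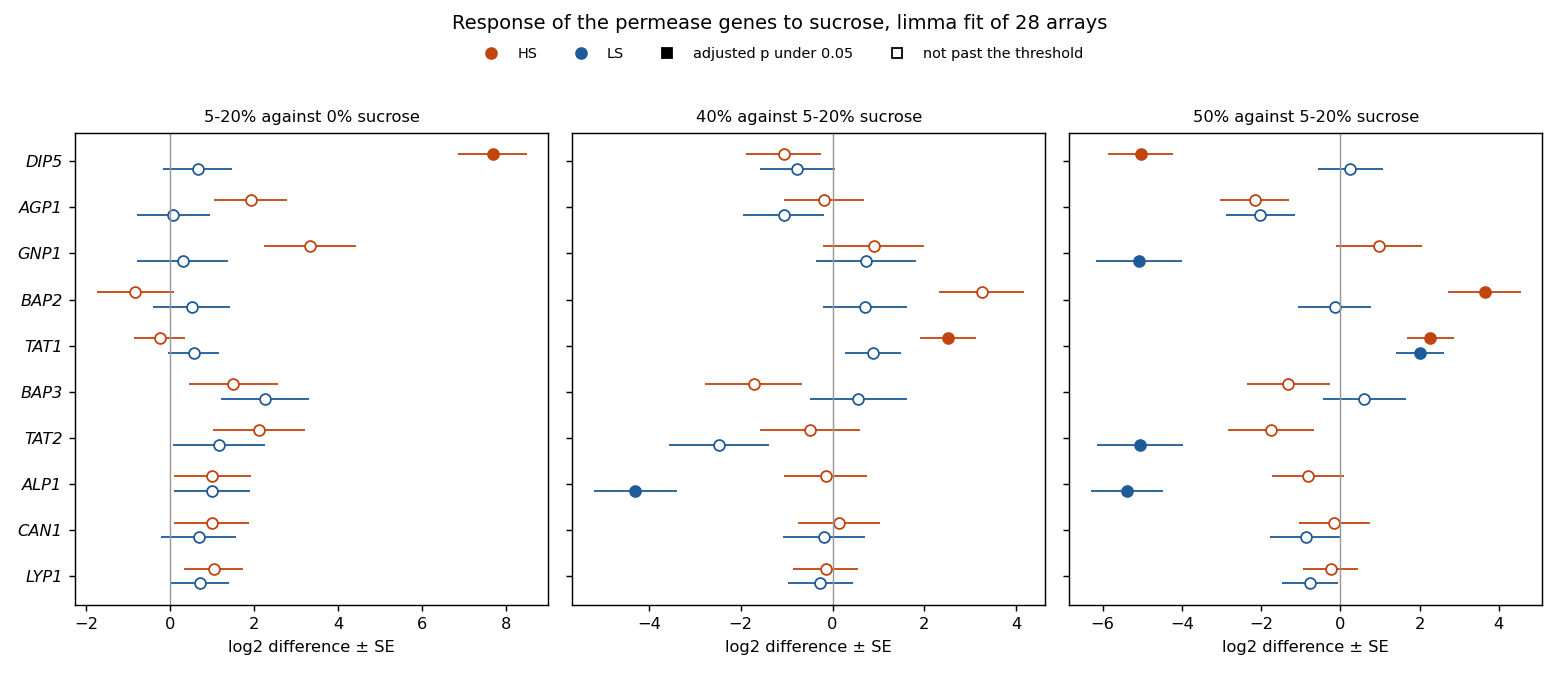
Log2 difference ± SE (limma, 28 arrays) of each permease gene in HS and LS, for 5-20% against 0%, 40% against 5-20% and 50% against 5-20% sucrose. Filled points have an adjusted p under 0.05, and the DIP5 point of HS at 5-20% is a description. At 50% DIP5 is lower and BAP2 and TAT1 are higher in HS, while GNP1, TAT2 and ALP1 are lower and TAT1 is higher in LS.

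The counts over the family were read against all probe sets. For HS at 5 to 20% against 0%, DIP5 was past the threshold, where 8.35% of all probe sets were, and since the gene was chosen for this change nothing is read from that. Limma called 0 of the other members with all arrays, where GNP1 and AGP1 had an unadjusted p under 0.05, and 4 without the 6 LS arrays, where 34.1% of all probe sets were called. The arrays did not overlap for 7 of 10 members, all higher in sucrose, where 31.9% of probe sets did not overlap in that direction. The median difference of the 10 was 1.27, against 0.31 over all probe sets. Both the 7 and the median include DIP5, which was chosen for this change, so they are given as a description. The S. pombe background moved by 1.18 on the log2 scale in this comparison. In LS limma called 0 of 10 members, where 0.109% of all probe sets were called, and 0 without the 6 arrays, where 0.437% were. BAP3 had an unadjusted p under 0.05, as did 387 probe sets in all, with a difference of 2.26 ± 1.06. All 10 LS differences were above 0, with a median of 0.67 against 0.08 over all probe sets. Arrays did not overlap for 2 members, ALP1 and BAP3, both higher in sucrose, where 1.95% of probe sets did not.

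At 40% HS had 1 call of 10, TAT1, beside 2.42% of all probe sets, and LS had 1, ALP1, beside 17.9%. There were 2 calls in HS and 4 in LS without the 6 arrays, where 21.5 and 54% of all probe sets were called. Arrays at 40% lay wholly above those at 5 to 20% for 3 members in HS and 1 in LS, beside 17 and 14.7% of probe sets. They lay wholly below for 1 member in HS and 2 in LS, beside 21.6 and 14.8%.

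At 50% the members went both ways in each yeast. HS had 3 calls beside 15.1% of all probe sets, with 2 members higher and 1 lower, where 8 and 7.06% of probe sets were. The lower one was DIP5, whose reference arrays at 5 to 20% are also those that singled it out. LS had 4 calls beside 22.1%, with 1 member higher and 3 lower, where 11 and 11.1% of probe sets were. In the fit without the 6 arrays 5 members were called in HS and 6 in LS, where 47.3 and 49.7% of all probe sets were called. With each yeast fitted alone 4, 2 and 5 members were called in HS for 5 to 20, 40 and 50%, where 32.2, 19.8 and 46.1% of all probe sets were, and 2 in LS at 50%, where 5.26% were. DIP5 is among the 4 and among the 5. Arrays at 50% lay wholly above those at 5 to 20% for 3 members in HS and 1 in LS, beside 24.2 and 11.4% of probe sets, and wholly below for 3 and 3, beside 30 and 10.9%.

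The yeasts were compared next, as the mean over the 7 concentrations, with 14 arrays each. BAP2, TAT1 and BAP3 were lower in HS. TAT1 had a median of 0.375 in HS (lowest 0.132, highest 2.49) and of 1.44 in LS (lowest 0.597, highest 5.31), a difference of -1.56 ± 0.28 (2.95-fold, adjusted p = 0.00128). HS arrays were below both LS arrays at 6 of 7 concentrations, with overlap at 40%. BAP3 had a median of 0.532 in HS and 2.65 in LS, a difference of -2.38 ± 0.49 (adjusted p = 0.00354), and HS arrays were below both LS arrays at 5 of 7 concentrations and above them at 30%. BAP2 had a median of 0.280 in HS and 1.47 in LS, a difference of -1.5 ± 0.43 (adjusted p = 0.0247), with HS below LS at 4 of 7 concentrations and overlap at 20, 30 and 50%.

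These 3 calls among 10 members stood beside 15.4% of all probe sets called in either direction and 11.4% called lower in HS. Without the 6 arrays 4 members were called, where 28.9% of all probe sets were. The differences of TAT1, BAP3 and BAP2 were then -1.36 ± 0.33, -1.91 ± 0.42 and -2.41 ± 0.27. The BAP2 call was lost without the first HS array at 30% (adjusted p = 0.0521). CAN1 was 1.05 ± 0.41 higher in HS (adjusted p = 0.086). It passed without the first LS replicate at 0, 5, 10 or 20% (adjusted p = 0.0245, 0.0481, 0.0342 and 0.0215), after quantile normalization and with the replicate block (adjusted p = 0.0399 and 0.0339). Without the 6 LS arrays its difference was 0.12 ± 0.21 (adjusted p = 0.692). ALP1 had a difference of -0.57 ± 0.42 (adjusted p = 0.349) and passed without the first LS array at 50% (-0.96, adjusted p = 0.0203). TAT2 had 0.13 ± 0.50 (adjusted p = 0.869) and turned to -1.11 ± 0.29 without the 6 arrays (adjusted p = 0.0132).

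Whether the yeasts responded differently was tested as the HS response minus the LS response. The DIP5 response in HS to 5 to 20% against 0% exceeded that of LS by 7.01 ± 1.16, a value tied to the change that singled the gene out and so given without a test. Of all probe sets, 0.655% were past the threshold for this difference with all arrays and 1.38% without the 6. Of the other members, limma called 0 in either fit, and GNP1 had an unadjusted p under 0.05 without the 6 arrays. At 50% against 5 to 20% the DIP5 difference was -5.30 ± 1.16 (adjusted p = 0.0436), the call among 10 members where 0.491% of all probe sets were called. This call was lost when any 1 of 12 of the 16 compared arrays was left out (adjusted p = 0.0523 to 0.591), with a variance trend (adjusted p = 0.069) and with only the compared groups (adjusted p = 0.0623). It was kept without the 6 LS arrays (-4.47), which leaves 1 LS array at 50%. The HS arrays at 5 to 20% tie this difference, too, to the change that singled DIP5 out.

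GNP1 and ALP1 differed in the other direction at 50%, the HS response exceeding that of LS by 6.06 ± 1.54 and 4.57 ± 1.28 (adjusted p = 0.0876 and 0.132). GNP1 passed without the second LS replicate at 10 or 20% or the first at 50% (adjusted p = 0.0378, 0.0313 and 0.0276). ALP1 passed without the second LS replicate at 50% (adjusted p = 0.000934). Without the 6 arrays 6 members passed, where 12.7% of all probe sets did. Their differences were 6.75 ± 0.68 for GNP1, 7.34 ± 0.91 for ALP1, 3.46 ± 0.83 for BAP2, 3.49 ± 0.90 for TAT2, -4.54 ± 1.31 for BAP3 and the value above for DIP5. For 40% against 5 to 20% limma called 0 of 10 members with all arrays, where 0.418% of probe sets were called, and ALP1 had an unadjusted p under 0.05 (673 probe sets in all). Without the 6 arrays 7 members passed, where 27.5% of all probe sets did. These were ALP1, BAP2, TAT2, AGP1, GNP1 and CAN1 with a higher response in HS and BAP3 with a lower one.

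**Figure D3:**
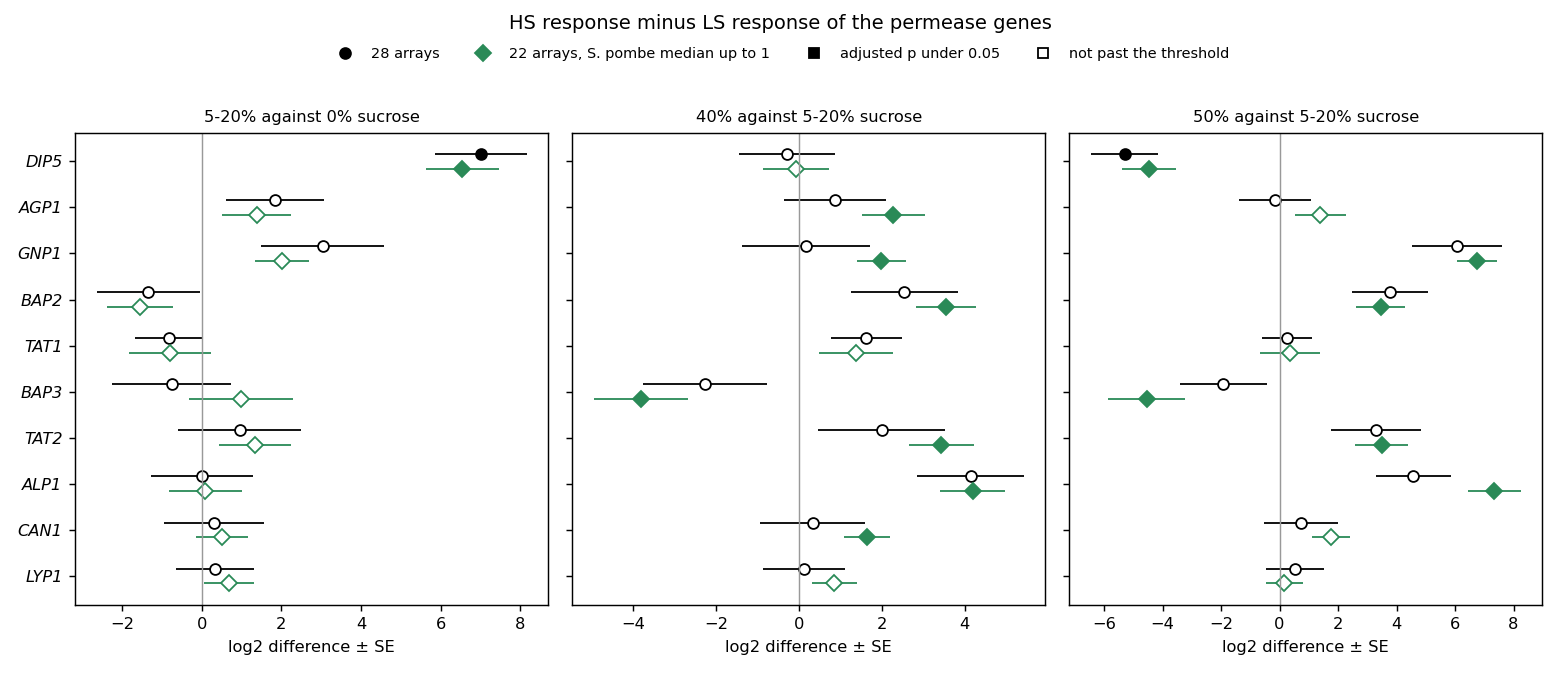
HS response minus LS response (log2, ± SE) of each permease gene, from limma on all 28 arrays and on the 22 arrays with an S. pombe median up to 1. Filled points have an adjusted p under 0.05, the DIP5 points at 5-20% are a description, and the filled DIP5 points at 50% lie at -5.30 and -4.47.

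The SPS pathway senses external amino acids and controls many of these genes. Of its 12 genes, 0 were called in limma in either yeast for 5 to 20% against 0% with all arrays, and 0 in HS without the 6. Of all probe sets 8.35% in HS and 0.109% in LS were called with all arrays, and 34.1% in HS without the 6. With all arrays 0 of the 12 genes had an unadjusted p under 0.05, where 1038 of 5498 probe sets in HS and 387 in LS did. At 50% 1 rose and 0 fell in HS and likewise in LS, and without the 6 arrays 2 rose and 3 fell in HS and 1 rose and 3 fell in LS. At 40% 0 rose and 1 fell in LS, against 2 and 3 without the 6 arrays. Of all probe sets 8% rose and 7.06% fell in HS at 50%, and 21.4 and 25.9% without the 6 arrays. In LS 11 and 11.1% did at 50% and 9.73 and 8.17% at 40%. Without the 6 arrays 49.7 and 54% were called there in either direction. At 50% ASI2, which encodes an inner nuclear membrane protein that keeps unprocessed Stp1 and Stp2 out of action, rose by 1.68 ± 0.53 in HS and by 1.80 ± 0.53 in LS (adjusted p = 0.038 and 0.02). At 40% YCK2, a casein kinase gene, fell by 1.66 ± 0.56 in LS (adjusted p = 0.0471), and 0 of 12 were called in HS, or 1 without the 6 arrays. STP1 had 1.42 and 1.18 at 50% in HS, against 0.833, 0.995, 1.14, 0.834, 1.18 and 0.781 at 5 to 20%. SSY1, the sensor gene, had 0.586 and 0.435 at 50%, against 1.03, 1.54, 1.57, 1.69, 0.872 and 1.23. Their differences were 0.45 ± 0.85 and -1.35 ± 0.80 (adjusted p = 0.786 and 0.29). In the fit of 22 arrays SSY1 fell in HS by 1.35 ± 0.31 at 50% (adjusted p = 0.00388) and by 1.04 ± 0.31 at 40% (adjusted p = 0.0339). The LS falls of SSY1 in that fit were 2.08 at 50%, where 1 array was left, and 2.24 at 40%.

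Of the 10 other amino acid permease genes, GAP1 was called for HS at 5 to 20% against 0%. GAP1 encodes the general amino acid permease of poor nitrogen supply. It had a median of 1.95 at 5 to 20% (lowest 1.16, highest 2.94), against 0.308 and 0.328 at 0%, and rose by 2.59 ± 0.64 (adjusted p = 0.0135). At 50% it had 0.580 and 0.558, with a difference of -1.75 ± 0.64 (adjusted p = 0.0715), past the threshold without the 6 arrays (adjusted p = 0.00793). AGP2, a carnitine transporter gene of the family, rose at 50% by 3.18 ± 0.87 in HS and by 4.54 ± 0.87 in LS (adjusted p = 0.0174 and 0.00119). The proline permease gene PUT4 rose in LS by 3.29 ± 0.74 at 40% and by 4.18 ± 0.74 at 50% (adjusted p = 0.00432 and 0.000632). SAM3, an S-adenosylmethionine permease gene, fell in LS at 40% by 2.60 ± 0.66 and in HS at 50% by 2.02 ± 0.66 (adjusted p = 0.00994 and 0.0447). Of all probe sets 2.84% rose and 5.51% fell in HS at 5 to 20%, and 8 and 7.06% in HS at 50%. In LS 9.73 and 8.17% did at 40% and 11 and 11.1% at 50%. In the fit of 22 arrays 20% rose and 14.2% fell in HS at 5 to 20%. The HS shares were then 9.35 and 12.1% at 40% and 21.4 and 25.9% at 50%. In LS that fit called 54% at 40% and 49.7% at 50%. Over the 10 genes, 1 rose and 0 fell in HS at 5 to 20%, 2 rose and 1 fell in LS at 40%, 0 were called in HS at 40%, 2 rose and 0 fell in LS at 50%, and 1 rose and 1 fell in HS at 50%. The fit of 22 arrays had 3 higher and 4 lower in HS at 5 to 20%, 2 and 5 in LS at 40%, 1 and 1 in HS at 40%, 4 and 2 in LS at 50%, and 2 and 4 in HS at 50%.

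Peptide transporter genes were also called in HS. Of 6 genes of peptide transport, OPT2 and PTR2 rose at 5 to 20% against 0%. OPT2 had ratios between 11.9 and 21.6 at 5 to 20% in HS, against 0.0478 and 0.358 at 0%, a rise of 6.97 ± 1.39 (adjusted p = 0.00313). At 50% it had 0.017 and 0.241 and fell by 8.0 ± 1.39 (adjusted p = 0.000748). PTR2, the di- and tripeptide transporter gene and a target of the SPS sensor, had a median of 0.796 at 5 to 20% (lowest 0.319, highest 6.13), against 0.0101 and 0.347 at 0%. These arrays overlapped, and the rise was 4.07 ± 1.2 (adjusted p = 0.0399). Its size is not fixed, since 1 array at 0% is near 0.01, the lowest value of the table. The other array at 0% lay inside the range of 5 to 20%. Of the 6 genes, 2 rose at 5 to 20% in HS with all arrays and 4 in the fit of 22 arrays. Of all probe sets, 2.84 and 20% rose. In HS at 50% 0 rose and 1 fell, against 0 and 3 in the fit of 22 arrays, where 7.06 and 25.9% of all probe sets fell.

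Genes of amino acid breakdown were called at high sucrose. Of 13 genes of transamination and breakdown, 8 rose and 0 fell in LS at 40%, 8 rose and 1 fell in LS at 50%, and 4 rose and 0 fell in HS at 50%, where 9.73, 11 and 8% of all probe sets rose. The fit of 22 arrays had 9 higher and 3 lower in LS at 40%, 9 and 2 in LS at 50%, and 6 and 1 in HS at 50%. Of all probe sets that fit called 54 and 49.7% in LS at 40 and 50% and 47.3% in HS at 50%. With each yeast fitted alone, 2 of the 13 genes were higher and 0 lower in LS at 40 and at 50%. There were 6 and 1 in HS at 50%. Of all probe sets 3.35, 3.97 and 20.7% were then higher. Medians with all arrays were 2.47, 2.34 and 1.39, against -0.25, -0.26 and -0.14 over all probe sets. ARO10, the phenylpyruvate decarboxylase gene, had 16.9 and 57.3 at 50% in HS, against a median of 0.520 at 5 to 20%, and rose by 6.05 ± 1.16 (adjusted p = 0.0015). In LS ARO10 rose by 6.79 ± 1.16 at 40% (adjusted p = 0.000603). ARO9, an aromatic aminotransferase gene, rose by 3.26 ± 0.78 in HS at 50% (adjusted p = 0.00782). PUT1, the proline oxidase gene, rose by 5.49 ± 1.04 in LS at 40% (adjusted p = 0.00125), and the arginase gene CAR1 by 3.41 ± 0.72 in HS at 50% (adjusted p = 0.00308).

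**Figure D4:**
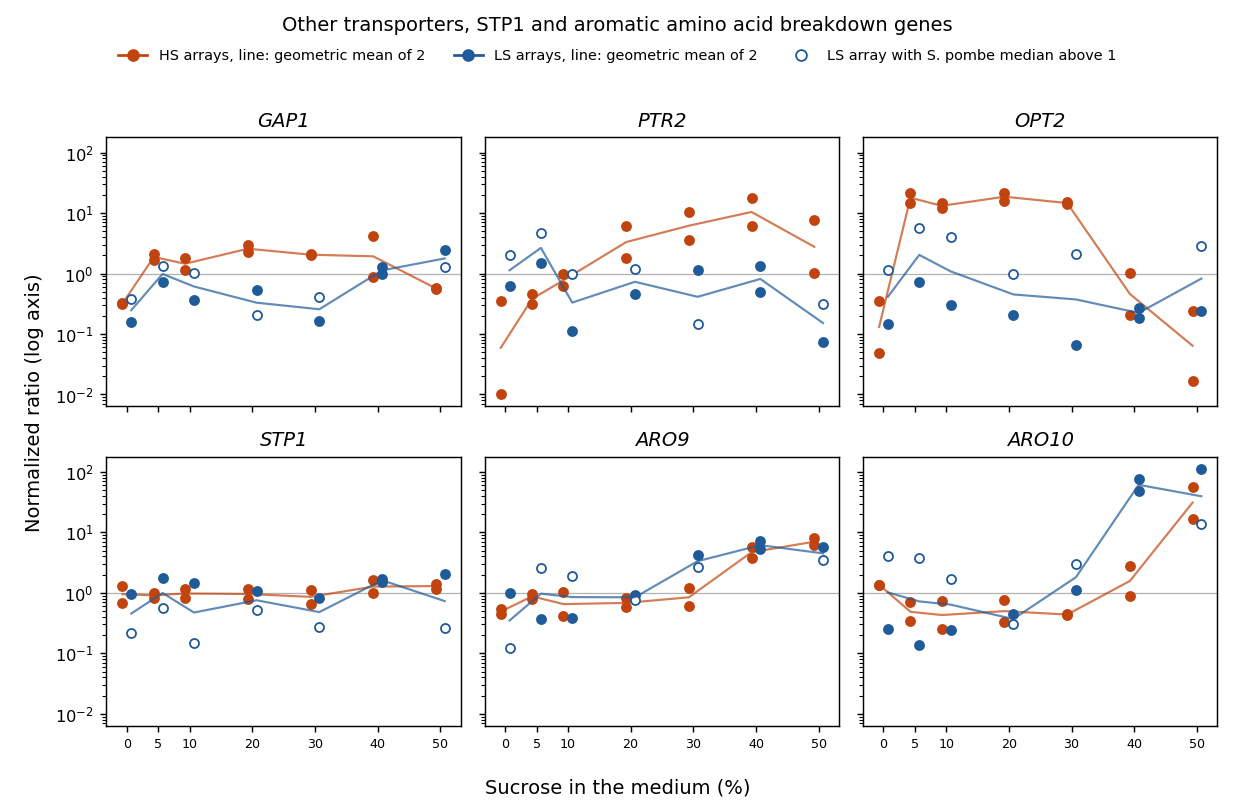
Normalized ratio (log axis) against sucrose concentration in percent for GAP1, PTR2, OPT2, STP1, ARO9 and ARO10 in HS and LS. Points are arrays, lines the geometric mean of 2, and open points the 6 LS arrays whose S. pombe median exceeded 1. OPT2 lies between 11.9 and 21.6 in HS at 5 to 20% and at 0.017 and 0.241 at 50%, and ARO10 lies at 16.9 and 57.3 in HS at 50%.

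Of 12 genes of vacuolar amino acid transport, 0 rose and 4 fell in HS at 50% and 0 rose and 2 fell in LS, where 7.06 and 11.1% of all probe sets fell. The medians were -1.44 in HS, against -0.14 over all probe sets, and -0.19 in LS, against -0.26, with 5 of the 12 LS differences above 0. In the fit of 22 arrays 0 rose and 7 fell in HS and 1 rose and 6 fell in LS, and with LS alone 0 rose and 1 fell. Of all probe sets 25.9% fell in HS in the fit of 22 arrays, and 1.29% fell with LS alone. VBA1, a vacuolar importer of basic amino acids, fell by 3.46 ± 0.64 in HS (adjusted p = 0.00127), after a rise of 2.75 ± 0.64 at 5 to 20% against 0% (adjusted p = 0.00935). YPQ1, a vacuolar carrier of basic amino acids, fell by 1.83 ± 0.46 in HS and by 2.56 ± 0.46 in LS (adjusted p = 0.0101 and 0.000685), and AVT5 by 1.99 ± 0.64 and 2.48 ± 0.64 (adjusted p = 0.0403 and 0.00875). Of 12 genes of permease trafficking and turnover, and of 12 regulators of nitrogen catabolite repression and general control, limma called 0 in any of the 6 comparisons within a yeast with all arrays. Of all probe sets between 0.109% (LS at 5 to 20%) and 22.1% (LS at 50%) were called in these comparisons. In the fit of 22 arrays, trafficking genes were called in 5 of these comparisons, up to 2 higher and 3 lower in LS at 40% and 3 higher and 2 lower in LS at 50%. The regulators were then called in 4, up to 0 higher and 3 lower in HS at 50%. In the comparisons just named, the fit of 22 arrays called 47.3 to 54% of all probe sets. With all arrays an unadjusted p was under 0.05 in 6 and 4 of 72 tests. For HS against LS over all concentrations, 4.06% of all probe sets were called higher and 11.4% lower with all arrays. Over all concentrations 5 of these regulators were higher in HS and 0 lower (5 and 1 in the fit of 22 arrays), among them the GATA repressor gene DAL80 at 1.72 ± 0.53 and URE2 at 1.51 ± 0.46 (adjusted p = 0.0349 for each). The URE2 difference was 0.47 ± 0.14 in the fit of 22 arrays (adjusted p = 0.0233) and that of DAL80 was 2.83 ± 0.40 (adjusted p = 0.000459).

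Likeness between genes was measured as Pearson's r over the 14 group means of log2 ratio, which share arrays and per-gene scaling, and is given as a description. Among 5448 other genes, those most like DIP5 were MEP2, an ammonium permease gene (r = 0.897), VBA1 (r = 0.869) and PMA1, the plasma membrane proton pump gene (r = 0.868, or 0.687 without the 6 arrays). Closest to AGP1 were URA7, SEC59 and MNN10 (r = 0.925, 0.919 and 0.913). TAT2 was most like GLE2, YBR238C and LDO16 (r = 0.956, 0.954 and 0.949), and LDO16 also led the list of ALP1 (r = 0.954, or 0.793 without the 6 arrays). PSR1 stood among the 3 genes most like BAP2 and among those most like TAT1 (r = 0.84 and 0.879).

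Within the family, 28 of 45 pairs had an r above 0. The highest were ALP1 with TAT2 (0.886), TAT2 with AGP1 (0.847) and BAP2 with TAT1 (0.769). The neighbours BAP2 and TAT1 had an r of 0.926 over the 7 HS means and of -0.023 over the 7 LS means. ALP1 and LYP1, which flank BSC4 in the annotation, had an r of 0.393. The lowest was TAT1 with CAN1 (-0.529).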

How the data were processed

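Transcript levels were measured on Affymetrix arrays, 28 in all. The authors deposited a linear ratio per probe set. Per the series design text normalization was per chip, over positive genes other than those of S. pombe, and then per gene, in GeneSpring 7.0. Here 97.7% of S. cerevisiae probe sets had a median within 0.01 of 1. Values ran from 0.01 to 532.3. No source used here names the probe summary.

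Of 10928 probe sets, 5498 had 1 symbol and matched an S. cerevisiae gene, 12 of them under an updated symbol, and 1746 with 1 symbol matched none and served as the S. pombe background. Log2 ratios went into a cell-means model of 14 groups in limma 3.58.1 (R 4.3.3) with 14 residual and 5.41 prior degrees of freedom, and 10 comparisons were tested, 2-sided. The fit was tested on simulated data. Members and gene lists were chosen with earlier results of these data known. Genes named were the members, up to 4 called genes with the largest change per list and comparison, 8 regulators and transporters, and the 3 genes most like each member. Some were left out for length. Alternatives were quantile normalization, median centring, an offset of 0.0564, a variance trend, a replicate block, other sets of arrays and each array left out.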

Additional observations from a re-analysis of the deposited data

Results flagged for a closer look

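Both results picked out for a closer look concern DIP5 and the difference between its responses in HS and in LS. For 5 to 20% against 0% sucrose the HS minus LS difference was 7.01 on the log2 scale, and 6.93 and 7.10 with either HS array at 0% left out. This contrast is the one that singled the gene out, so it is listed as a description with no test. For 50% against 5 to 20% the difference was -5.30, past the threshold of the model's test of the difference itself, and its range with 1 array left out was -5.42 to -4.21 over the arrays whose omission ended the call. This second contrast shares its HS arrays at 5 to 20% with the first. Groups of 2 arrays are too small to look for a single outlying array.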

How the results depend on the processing

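Counts are of called members out of 10, and those for HS at 5 to 20% include DIP5, which was chosen for that change. The share of all probe sets called in HS at 5 to 20% was 8.35% with all arrays. It was 34.1% without the 6 LS arrays and 32.2% with HS alone. For the other settings and with 1 array left out that share was not counted. The counts are thus not read as a gain or loss of the family. For HS at 5 to 20% against 0% the count was 1, and 2 after quantile normalization, 2 with the replicate block, 5 without the 6 LS arrays, 6 with only the compared groups and 4 with HS alone. For HS at 40% it was 1, and 2 under each of these 5 settings. For HS at 50% it was 3, against 5 without the 6 LS arrays, 6 with only the compared groups and 5 with HS alone. For LS at 40% it was 1, and 4 without the 6 arrays. For LS at 50% it was 4, against 3 after quantile normalization, 6 without the 6 arrays, 1 with only the compared groups and 2 with LS alone. For the HS minus LS response at 40% it was 0, and 7 without the 6 arrays and 1 with only the compared groups. At 50% it was 1, and 2 after quantile normalization, 2 with the replicate block, 0 with a variance trend, 6 without the 6 arrays and 0 with only the compared groups. The cause of these shifts was not tested. Leaving out 1 array at a time gave counts of 0 to 0 for LS at 5 to 20%, 1 to 1 for HS at 5 to 20%, 0 to 1 for LS and for HS at 40%, 1 to 5 for LS and 1 to 3 for HS at 50%, 2 to 4 for HS against LS, and 0 to 1, 0 to 0 and 0 to 2 for the response differences at 5 to 20, 40 and 50%. The TAT2 difference of HS against LS reversed, to -1.11 without the 6 arrays. Median centring and the offset changed none of the 100 member calls. Sizes are not covered by that count. The DIP5 difference of HS at 5 to 20% against 0% ran from 5.39 to 8.16 over all settings.

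The replicate block changed 4 of 100 member calls, all gained. They were GNP1 in HS at 5 to 20% (3.33, adjusted p = 0.0221), BAP2 in HS at 40% (3.25, adjusted p = 0.0484), CAN1 in HS against LS (1.05, adjusted p = 0.0339) and the GNP1 response difference at 50% (6.06, adjusted p = 0.0301). The labels give only a number. Same-numbered deviations correlated above 0.1 in 42 of 91 pairs of groups (lowest -0.279, highest 0.714), in 18 of 21 pairs within HS and in 15 of 21 within LS (medians 0.288 and 0.392). In LS replicate 1 was the higher array at 7 of 7 concentrations for GNP1, BAP2, TAT2 and LYP1 and at 0 of 7 for TAT1. Not every pair was above 0.1 in either yeast, and the main fit did not pair the samples by number. The replicate block was 1 effect shared by both yeasts, where the median r over all 14 groups was 0.037. A replicate effect of each yeast was not tested. The median over several probe sets was not run, since each member has 1. With 2 arrays a group, a single array at either end of a comparison decided several calls, and ratios near the lowest value of the table have no fixed size.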
